A study of Mus musculus with 2 samples.

Results

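Microglia, macrophages and monocytes of the retina can release proteins that act on growing vessels, and the mRNAs of 10 such secreted growth and angiogenic factors were followed across the myeloid cells of 1 room air (RA) and 1 oxygen-induced retinopathy (OIR) library. The factors were Igf1, Vegfa, Vegfb, Pdgfb, Pdgfa, Bmp2, Thbs1, Hbegf, Osm and Sparc. They were taken by gene symbol from the 31053 genes of the deposited matrices, and all 10 were found in both matrices.

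The study sorted live cells positive for CD11b and F4/80 from retinas of C57BL/6j mice at postnatal day (P) 17 and profiled them with a droplet 3′ assay that counts unique molecular identifiers (UMIs). OIR pups had been kept in raised oxygen and then returned to room air, whereas age-matched RA pups stayed in room air throughout. Under the OIR protocol retinal vessels are first lost, and new vessels then grow, in part as pathological tufts. Retinas of several mice were pooled into each library, so each condition is a single sample. No difference between RA and OIR therefore has a replicate check, and every interval below is a 95% interval that covers counting error only.

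Insulin-like growth factor 1 (Igf1) and the vascular endothelial growth factors (Vegfa, Vegfb) act on vessels through receptor tyrosine kinases, and Vegfa is a classical target of hypoxia-inducible factor. Platelet-derived growth factors (Pdgfa, Pdgfb) recruit pericytes and glia, bone morphogenetic protein 2 (Bmp2) signals through BMP receptors to SMAD proteins, and heparin-binding EGF-like growth factor (Hbegf) is shed from the cell surface to activate the EGF receptor. Oncostatin M (Osm) is a cytokine of the gp130 family. Thrombospondin 1 (Thbs1) and Sparc are matricellular proteins, which modulate how cells respond to matrix and growth factors rather than building the matrix itself.

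The upstream sequences of Igf1, Vegfa and Sparc are shown because the first pair differed most between OIR and RA microglia and the last was almost equal in them. RefSeq sequences on build GRCm38.p6 were used, each the 250 bases before the annotated start, written 5′ to 3′ on the gene's strand. Igf1 lies on chromosome 10 (chr10:87860861-87861110, plus strand), Vegfa on chromosome 17 (chr17:46032378-46032627, minus strand) and Sparc on chromosome 11 (chr11:55420081-55420330, minus strand). Capitals mark matches, on either strand, to 4 short motifs picked after the values were known: the hypoxia-inducible factor core (ACGTG or GCGTG), the AP-1 site (TGANTCA), the PU.1 core (GAGGAA) and the cAMP response element (TGACGTCA).
Igf1: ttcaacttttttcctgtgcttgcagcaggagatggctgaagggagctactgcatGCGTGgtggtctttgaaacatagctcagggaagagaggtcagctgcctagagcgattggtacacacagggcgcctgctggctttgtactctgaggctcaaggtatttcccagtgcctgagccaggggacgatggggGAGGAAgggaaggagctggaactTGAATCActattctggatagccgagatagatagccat
Vegfa: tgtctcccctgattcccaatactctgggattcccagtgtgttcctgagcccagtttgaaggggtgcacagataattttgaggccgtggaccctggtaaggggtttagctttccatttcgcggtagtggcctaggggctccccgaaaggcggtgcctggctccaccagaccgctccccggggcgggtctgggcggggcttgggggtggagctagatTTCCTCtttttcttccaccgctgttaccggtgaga
Sparc: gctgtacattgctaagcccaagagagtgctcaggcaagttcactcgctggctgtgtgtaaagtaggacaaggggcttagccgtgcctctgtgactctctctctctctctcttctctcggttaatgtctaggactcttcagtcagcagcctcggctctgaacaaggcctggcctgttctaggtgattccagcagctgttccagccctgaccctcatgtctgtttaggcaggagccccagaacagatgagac
The Igf1 window held a hypoxia-inducible factor core at position -196, a PU.1 core at position -60 and an AP-1 site at position -37 from the start. The Vegfa window held a PU.1 core on the opposite strand at position -35. A window before another annotated Vegfa start (chr17:46025164-46025413) held 2 hypoxia-inducible factor cores. On the minus strand that window lies downstream of the start used above, so those cores are not upstream of it. The Sparc window matched no motif. Vegfb and Pdgfa, the other members with an entry, are not shown. The Vegfb window held 2 hypoxia-inducible factor cores. A Pdgfa window held 1 such core and a PU.1 core, and another Pdgfa window matched no motif. Neither gene differed 2-fold between OIR and RA microglia (log2 ratios of 0.31 and 0.21). Of 32851 promoter windows of the same length, 38.6% held the hypoxia-inducible factor core, 23.3% the PU.1 core, 6.75% the AP-1 site and 1.55% the cAMP response element, so these matches are descriptions of the letters only.

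After filtering, 1295 RA and 1179 OIR cells were kept, of which 969 and 929 were myeloid, and the 2 libraries shared 0 cell barcodes. The myeloid cells fell into 12 clusters, named from marker genes: 7 of microglia, 2 of dividing cells, 2 of macrophages and 1 of monocytes. Microglia numbered 811 in RA and 591 in OIR, macrophages 91 and 140, monocytes 52 and 90, and dividing cells 15 and 108. With only 15 dividing cells in RA, no call between conditions was made for that class. Median depth was 10163 UMIs per cell in RA microglia and 6330 in OIR microglia.

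Several technical measures moved with the clusters and libraries. Malat1, a nuclear RNA, stood at 18468 CPM (UMIs of a gene per 1e6 UMIs of the group) in RA microglia and at 6473 CPM in OIR microglia, and 4 clusters (led by Cryba4, Gclm, Ube2c and Serpinb6a) held under 2000 CPM of it. These 4 clusters also had a median of 2392 to 2748.5 UMIs per cell and low summed levels of 12 immediate early genes (1975 to 5841 CPM, against 14005 to 34620 CPM in the other 8). The Cryba4-led cluster carried 3794 CPM of lens crystallins, and the Ube2c-led cluster 7213 CPM of red cell genes. Their part in the levels below was not tested. Without these clusters 1 call of a factor changed (Pdgfb in OIR monocytes over microglia), and the values without them stand beside those of Igf1, Vegfa, Pdgfb and Osm. Leaving these clusters out does not equalize Malat1 between the libraries. The Malat1 level of the remaining microglia is not given here, and the part of that difference in those values was not tested.

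Each factor had its own distribution over the myeloid classes. Sparc, Pdgfb and Pdgfa were highest in microglia in both libraries, though the OIR dividing cells overlapped microglia for Pdgfa (45.9 to 75.0 against 53.9 to 69.1 CPM). Bmp2, Hbegf, Osm and Igf1 were highest in macrophages. The lead over microglia was under 2-fold for Osm in both libraries and for Igf1 in OIR. Thbs1 and, in both libraries, Vegfa were highest in monocytes. Vegfb was lowest in monocytes and highest in dividing cells, by under 2-fold over microglia and with only 16 UMIs in RA. Levels are compared between cells for the same gene and not between genes.

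**Figure D1:**
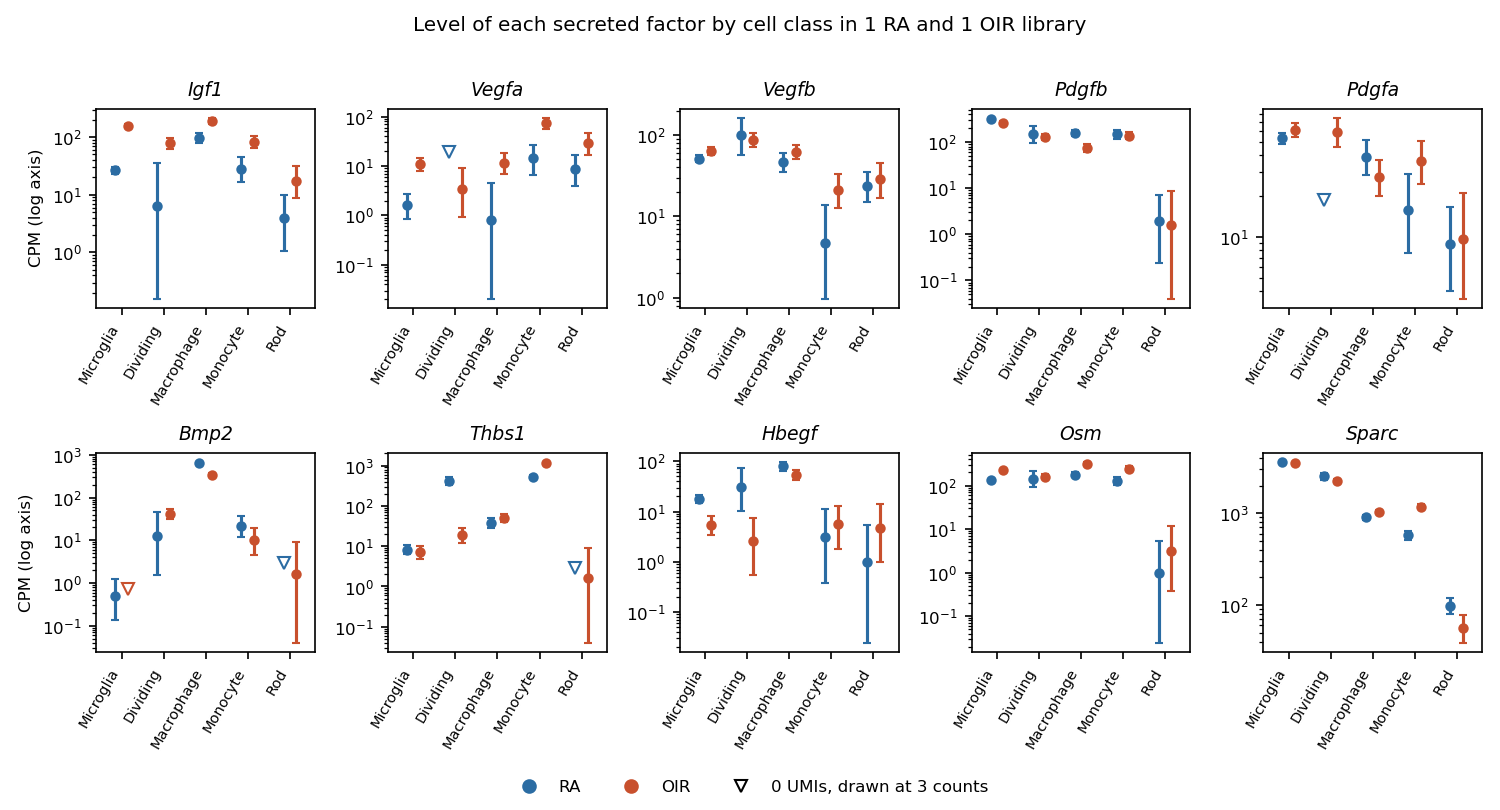
Level of each factor (CPM of summed UMIs, log axis) in microglia, dividing cells, macrophages, monocytes and, as a background, rods of the RA (blue) and OIR (orange) libraries. Points are sums over the cells of a class, bars are 95% Poisson intervals of the counts, and open triangles mark classes with 0 UMIs, drawn at 3 counts. Bmp2 stands highest in macrophages, Thbs1 in monocytes and Sparc in microglia in both libraries.

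In RA, 4 of the 9 members with enough counts were at least 2-fold higher in macrophages than in microglia (Igf1, Bmp2, Thbs1 and Hbegf) and 2 were at least 2-fold lower (Pdgfb and Sparc). Among all genes tested, 8.26% were that much higher and 8.09% that much lower. In OIR, 3 of 10 were higher (Bmp2, Thbs1 and Hbegf) and 3 lower (Pdgfb, Pdgfa and Sparc), against 8.86% and 5.43% of all genes tested. For monocytes over microglia in RA, 2 of 9 were higher (Vegfa and Thbs1) and 5 lower (Vegfb, Pdgfb, Pdgfa, Hbegf and Sparc), against 13.2% and 15.1% of all genes. In OIR, 2 of 9 were higher (Vegfa and Thbs1) and 2 lower (Vegfb and Sparc), against 11.5% and 9.66%. Pdgfb was just inside the 2-fold limit there, with a log2 ratio of -0.93 (-1.21 to -0.66), and passed it without the clusters low in Malat1, at -1.13 (-1.41 to -0.86), which makes 3 lower.

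Igf1 was the factor with the clearest difference between conditions. In microglia it stood at 26.4 CPM (212 UMIs) in RA and 156 CPM (659 UMIs) in OIR, a log2 ratio of 2.56 (2.34 to 2.79). The Egr3-, Rrad- and Cryba4-led clusters were each more than 2-fold higher in OIR, with log2 ratios of 1.64 to 1.89, and the small Bhlhe41-led cluster had a ratio of 0.55 (-2.08 to 2.78). Without the clusters low in Malat1 the log2 ratio was 2.31 (2.05 to 2.58), and in the 4 clusters with no activation marker among their 10 leading genes it was 1.82 (1.5 to 2.15). The share of microglia with at least 1 Igf1 UMI was 14.9% in RA and 32.1% in OIR, and 4.75% and 19.2% once every cell had been thinned to 2000 UMIs, whereas 0.669% and 0.877% of rods, which should lack it, held a UMI at median depths of 1765 and 1260.5 UMIs.

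The Igf1 transcripts of OIR microglia were spread unevenly over the clusters. The Gclm-led cluster, with Hmox1, Prdx1 and Fabp5 among its leading genes, held 10.8% of OIR microglia and 31.3% of their Igf1 UMIs. In the Gclm-led cluster the level was 768 CPM in RA (8 cells) and 860 CPM in OIR (64 cells), a log2 ratio of 0.16 (-0.39 to 0.76). The Egr3-led cluster, the largest, stood at 16.4 and 60.2 CPM. Igf1 was therefore high in the Gclm-led cells of both libraries, and such cells were more numerous in the OIR library. The Gclm-led cells had only 21.4 CPM of Malat1 and 704 CPM of red cell genes. Activation markers among their leading genes placed them with microglia. Their microglial marker genes summed to 6431.5 CPM, against 14747.1 to 24193.5 CPM in the other microglial clusters reported and 8560 CPM in the Lyve1-led macrophages. Their macrophage marker genes summed to 479 CPM, against 7405 CPM in the Lyve1-led and 9059 CPM in the Serpinb6a-led macrophages. Their monocyte marker genes summed to 46.4 CPM, against 5687 CPM in monocytes.

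Macrophages held more Igf1 than microglia in RA, at 97 CPM, a log2 ratio over microglia of 1.88 (1.54 to 2.21). In OIR they stood at 193 CPM, 0.31 (0.10 to 0.50) above microglia on the log2 scale, and 0.80 (0.58 to 1.03) above once the clusters low in Malat1 were left out of both classes. For macrophages with no UMI of P2ry12, a microglial gene, the log2 ratio over microglia was 0.04 (-0.45 to 0.49) in OIR and 3.12 (2.47 to 3.71) in RA. The ratio of OIR over RA macrophages was 0.99 on the log2 scale (0.68 to 1.31). Dividing cells held 1 UMI in RA and 90 UMIs (78.3 CPM) in OIR. Monocytes stood at 28.4 CPM in RA, where 17 of 18 UMIs came from 1 cell, and at 83.0 CPM in OIR.

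Among the binding partners of Igf1, Igfbp4, a secreted binding protein, was the only 1 of 10 IGF-pathway genes to reach 100 CPM in a myeloid class. It stood at 247 CPM in RA macrophages and 714 CPM in OIR macrophages, a log2 ratio of 1.53 (1.34 to 1.72), and at 36.1 and 40.5 CPM in microglia. Igfbp4 was among the leading genes of the Serpinb6a-led macrophages, a cluster low in Malat1 with 15 RA and 42 OIR cells. Its level without that cluster was not computed. The receptor Igf1r was at 37.9 and 21.1 CPM in microglia, and the insulin receptor Insr at 20.6 and 16.4 CPM. Of the 4 genes of this list with enough counts in microglia, 0 differed at least 2-fold between OIR and RA in either direction, where 6.7% of the 10449 genes tested in this comparison were that much higher and 7.33% that much lower.

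Vegfa was sparse in microglia but higher in OIR than in RA in each class with enough counts to compare. Microglia held 13 UMIs in RA (1.62 CPM) and 46 in OIR (10.9 CPM), a log2 ratio of 2.75 (1.84 to 3.76). That ratio was 2.58 (1.63 to 3.62) without the clusters low in Malat1. In the clusters without activation markers it was 1.83 (0.73 to 2.97). Monocytes stood at 14.2 CPM (9 UMIs) and 74.1 CPM (66 UMIs), a log2 ratio of 2.38 (1.37 to 3.57), and 23.3% of OIR monocytes held a UMI. Macrophages held 1 UMI in RA and 18 in OIR (11.5 CPM). Rods held 8.80 CPM in RA and 28.8 CPM in OIR, above the microglial level in both libraries. The summed rod marker genes stood at 14.7 to 254 CPM in the microglial clusters, against 83595 and 124576 CPM in the rod clusters. Only OIR monocytes stood above the rod level in their library with separate intervals, at 57.3 to 94.2 CPM.

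Genes known to rise with low oxygen, as Vegfa is, were taken from a hypoxia list of 10 genes. In microglia, 4 of the 9 genes of that list with enough counts were at least 2-fold higher in OIR and 0 lower, against 6.7% and 7.33% of all genes tested. Over both libraries the list summed to 1143 CPM in the Gclm-led cluster and 639 CPM in the Cryba4-led cluster. The other microglial clusters reported held 323 to 442 CPM. The counts of genes past 2-fold were not recomputed without the clusters low in Malat1. Egln3, a prolyl hydroxylase, stood at 4.61 CPM in RA and 42.2 CPM in OIR, the mitophagy receptor Bnip3 at 41.4 and 126 CPM, and the cytokine Mif, which did not reach 2-fold, at 89.9 and 166 CPM. In monocytes 2 of 9 genes of the hypoxia list were higher in OIR and 2 lower, against 8.17% and 6.6% of all genes. In macrophages 1 of 6 was higher and 0 lower, against 9.81% and 5.4%. Adm, which encodes the vasoactive peptide adrenomedullin, stood at 3 UMIs in RA and 21 in OIR microglia. It was the only 1 of the 4 genes of the VEGF and angiopoietin list with enough counts in microglia that differed 2-fold. Of the VEGF receptors, Flt1 was found mainly in monocytes (30.0 and 41.5 CPM), Kdr stayed under 10 CPM in each class, and the co-receptor Nrp1 was highest in macrophages (224 and 303 CPM). The related co-receptor Nrp2 stood at 63.7 and 49.6 CPM in microglia.

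Vegfb, by contrast, differed little between microglia and macrophages. It stood at 51.4 CPM in RA and 63.8 CPM in OIR microglia, a log2 ratio of 0.31 (0.09 to 0.54), and at 46.0 and 61.8 CPM in macrophages. Dividing cells were at 100 and 87.0 CPM, with intervals in RA of 57.2 to 163. Monocytes were low, at 3 UMIs (4.74 CPM) in RA and 19 UMIs (21.3 CPM) in OIR, a log2 ratio to microglia of -3.44 (-5.72 to -1.88) in RA and -1.58 (-2.34 to -0.91) in OIR. Rods held 23.5 and 28.8 CPM, so the monocyte level did not exceed that of cells outside the myeloid lineage.

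Pdgfb was a microglial transcript and did not follow Igf1. It stood at 324 CPM in RA and 265 CPM in OIR microglia, a log2 ratio of -0.29 (-0.39 to -0.19), which was -0.13 (-0.23 to -0.03) without the clusters low in Malat1. Those clusters held 25 to 59.2 CPM wherever at least 20 cells of a library could be measured. In macrophages Pdgfb was 158 CPM in RA and 74.5 CPM in OIR, a log2 ratio of -1.08 (-1.43 to -0.74), and in monocytes 147 and 139 CPM. Macrophages with no P2ry12 UMI held 4 Pdgfb UMIs in RA and 8 in OIR, a log2 ratio of -0.17 (-2.07 to 2.01). A UMI was found in 69.4% of RA and 50.3% of OIR microglia, and in 37.2% and 30.6% after thinning.

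Pdgfa too was highest in microglia, at 52.8 CPM in RA and 61.2 CPM in OIR, a log2 ratio of 0.21 (-0.02 to 0.44). Microglia held 88.1% of its myeloid UMIs in RA and 64.3% in OIR, against 80.0% and 53.9% of all myeloid UMIs. Dividing cells held 0 UMIs in RA and stood at 59.1 CPM in OIR, and monocytes stood at 15.8 and 35.9 CPM. Macrophages stood at 38.6 and 27.4 CPM. None of the 4 other PDGF-pathway genes listed reached 20 UMIs over any pair of groups compared, and Pdgfc, a ligand, reached 13 UMIs in OIR macrophages. The receptors Pdgfra and Pdgfrb had at most 4 UMIs in any myeloid class.

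Bmp2 was the most class-restricted factor. Macrophages held 97.5% of the myeloid Bmp2 UMIs in RA (772 of 792) and 90.4% in OIR (536 of 593). Their level was 634 CPM in RA and 341 CPM in OIR, a log2 ratio of -0.89 (-1.06 to -0.73), just inside the 2-fold limit. Microglia held 4 UMIs in RA and 0 in OIR, the latter an upper limit of 0.508% of 591 cells with a UMI, and in OIR the macrophage level was at least 480-fold higher, counting microglia at 3 UMIs. The share of macrophages with a UMI was 59.3% in RA and 44.3% in OIR, or 39.1% and 26.0% after thinning.

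**Figure D2:**
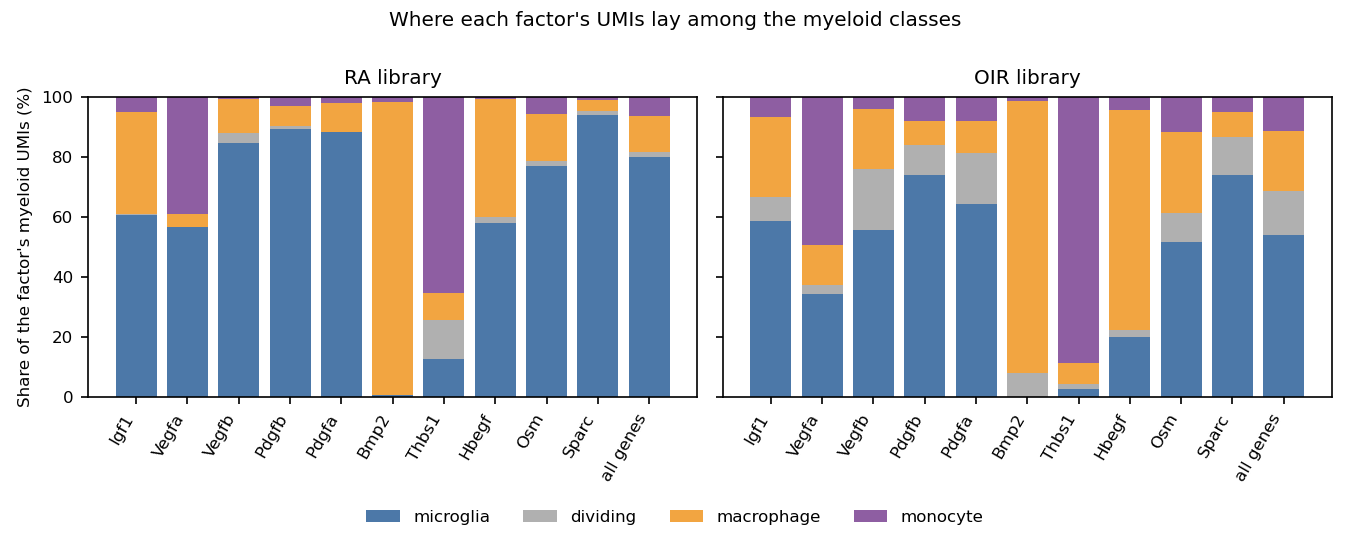
Share of each factor's myeloid UMIs (percent) held by microglia, dividing cells, macrophages and monocytes in the RA (left) and OIR (right) libraries, with the share of all UMIs as the last bar. Macrophages hold 97.5% and 90.4% of Bmp2 and monocytes 65.3% and 88.8% of Thbs1, whereas they hold 12.1% to 20.1% and 6.31% to 11.4% of all UMIs.

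Within macrophages, Bmp2 lay in cells that also carried Lyve1, a hyaluronan receptor of perivascular and tissue macrophages. Of 116 macrophages with a Bmp2 UMI, 73.3% held a Lyve1 UMI, against 28.7% of 115 macrophages without, at median depths of 12921.5 and 6791 UMIs. The Lyve1-led cluster stood at 660 and 362 CPM, while the shallow Serpinb6a-led macrophages held 1 UMI in RA and 8 in OIR (73.1 CPM). Bmp2 UMIs outside macrophages mostly came with macrophage transcripts: all 7 dividing cells, all 3 monocytes and 3 of the 4 microglia with a Bmp2 UMI held at least 5 UMIs of macrophage markers, as did 20.7%, 33.1% and 2.65% of those without it. The cells with Bmp2 were also deeper, at medians of 16397, 20471 and 20451.5 UMIs against 9458, 8602 and 9043 UMIs. Of the other BMP-pathway genes, the SMAD target Id3 was at 114 and 61.7 CPM in monocytes, at 78.9 and 56.1 CPM in macrophages and at 2.74 and 19.2 CPM in microglia. Its log2 ratio in microglia was 2.81 (2.11 to 3.56), and with Gdf15 it was among the 2 of 7 tested genes of this list that were 2-fold higher in OIR microglia, against 6.7% of all genes tested. Id2, another SMAD target, stood at 376 and 378 CPM in microglia and was at 297 to 472 CPM in each class. The receptor Bmpr2 was present in each myeloid class, at 27.0 to 68.8 CPM, and the receptors Bmpr1a and Acvr1 stood at 17.7 and 23.3 CPM in RA microglia and at 18.5 and 18.3 CPM in OIR microglia.

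Thbs1 was the monocyte factor. Monocytes stood at 532 CPM (337 UMIs) in RA and 1160 CPM (1034 UMIs) in OIR, a log2 ratio of 1.12 (0.95 to 1.31). Microglia held 8.23 and 7.11 CPM, so that monocytes were above microglia by 6.02 (5.63 to 6.42) on the log2 scale in RA and by 7.35 (6.83 to 7.93) in OIR. Macrophages were between, at 37.8 and 50.3 CPM. A UMI was found in 51.9% of RA and 64.4% of OIR monocytes, or 33.3% and 55.3% after thinning, against 0 of 299 RA rods, which allows a share of up to 1.0%, and 0.439% of OIR rods. All 67 UMIs in the RA dividing class came from 1 cell.

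The receptors of thrombospondin were measured beside it. Cd36 was a monocyte transcript (246 CPM in RA and 154 CPM in OIR), and Cd47 was highest there too (536 and 497 CPM). Fn1, the matrix protein fibronectin, stood at 272 and 493 CPM in monocytes, and at 6.11 CPM in RA and 66.9 CPM in OIR microglia, a log2 ratio of 3.45 (3.01 to 3.92). The integrin subunit Itgb5 stood at 1149 and 986 CPM in microglia, its partner Itgav at 94.0 and 107 CPM and Itgb3 at 17.1 and 9.01 CPM. Stab1, a scavenger receptor that takes up Sparc, was highest in macrophages, at 410 and 617 CPM. Of 7 tested genes of the matricellular list, Fn1 and Cd36 (18 and 27 UMIs) were at least 2-fold higher in OIR microglia and 0 were lower, against 6.7% and 7.33% of all genes tested.

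Sparc marked microglia at nearly the same level in both libraries. It stood at 3578 CPM in RA and 3524 CPM in OIR, a log2 ratio of -0.02 (-0.05 to 0.01), and 97.9% and 94.2% of microglia held a UMI. Clusters differed: the 4 without activation markers stood at 3606 CPM in RA and 4034 CPM in OIR, and the Gclm-led cluster at 743 and 1360 CPM. Macrophages held 898 and 1032 CPM and monocytes 574 and 1172 CPM, and rods 97.8 and 55.9 CPM. In the Igfbp7-led cells, 32 non-myeloid cells with vascular marker genes, it was 3768 and 5118 CPM.

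Hbegf was highest in macrophages and differed between conditions in microglia. Macrophages stood at 79.7 CPM in RA and 54.2 CPM in OIR, a log2 ratio of -0.56 (-1.0 to -0.12). Microglia stood at 17.9 CPM (144 UMIs) and 5.45 CPM (23 UMIs), a log2 ratio of -1.72 (-2.42 to -1.08). The difference was uneven between clusters, since the Rrad-led cluster went from 22.9 to 1.97 CPM and the Egr3-led cluster from 14.0 to 8.98 CPM. The immediate early genes, which tissue dissociation is known to induce, were also lower in OIR microglia, at 29032 CPM in RA and 21360 CPM in OIR. All 12 (Fos, Fosb, Jun, Junb, Egr1, Atf3, Ier2, Ier3, Dusp1, Nr4a1, Zfp36 and Btg2) reached 100 CPM in a class. Of these, 2 were at least 2-fold lower (Egr1 at 3245 and 1556 CPM, Btg2 at 3006 and 1440 CPM) and 0 higher, against 7.33% and 6.7% of all genes tested, and their part in the Hbegf difference was not tested. Of the other EGF-family ligands, Tgfa stood at 28.5 and 26.6 CPM in microglia, and the shedding proteases Adam17 and Adam10 at 90.4 and 140 CPM in RA microglia. Cd9, a tetraspanin that binds membrane-bound Hbegf, stood at 1139 and 2000.3 CPM in microglia. The receptor Egfr had 1 UMI in the macrophages of each library and 0 in the other classes, and the receptor Erbb4 had 0 UMIs in each class. None of the 4 tested genes of this list differed 2-fold between OIR and RA microglia.

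Osm was found in each myeloid class, with overlapping intervals for RA microglia (126 to 142 CPM), monocytes (103 to 161 CPM) and dividing cells (91.2 to 216 CPM), and was higher in OIR. Microglia stood at 134 CPM in RA and 227 CPM in OIR (log2 ratio 0.76, 0.64 to 0.89), macrophages at 177 and 320 CPM (0.86, 0.63 to 1.10) and monocytes at 130 and 242 CPM (0.90, 0.53 to 1.29). None reached 2-fold. The microglial ratio was 0.92 (0.80 to 1.05) without the clusters low in Malat1, which held 4.41 to 54.8 CPM of Osm where at least 20 cells were measured, and 1.02 (0.89 to 1.15) in the clusters without activation markers. Of the genes of the gp130 pathway, the feedback inhibitor Socs3 stood at 1059 CPM in RA and 1413 CPM in OIR microglia, the receptor subunit Il6st at 83.5 and 52.4 CPM, and Il6ra at 270 and 144 CPM. The receptor subunit Lifr was highest in macrophages, at 83.0 and 72.0 CPM, and Osmr had 0 UMIs in each class. Among 6 tested genes of the list, Il6 alone was 2-fold higher in OIR microglia, at 2.74 and 6.64 CPM (22 and 28 UMIs). That is 1 higher and 0 lower, against 6.7% and 7.33% of all genes tested.

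**Figure D3:**
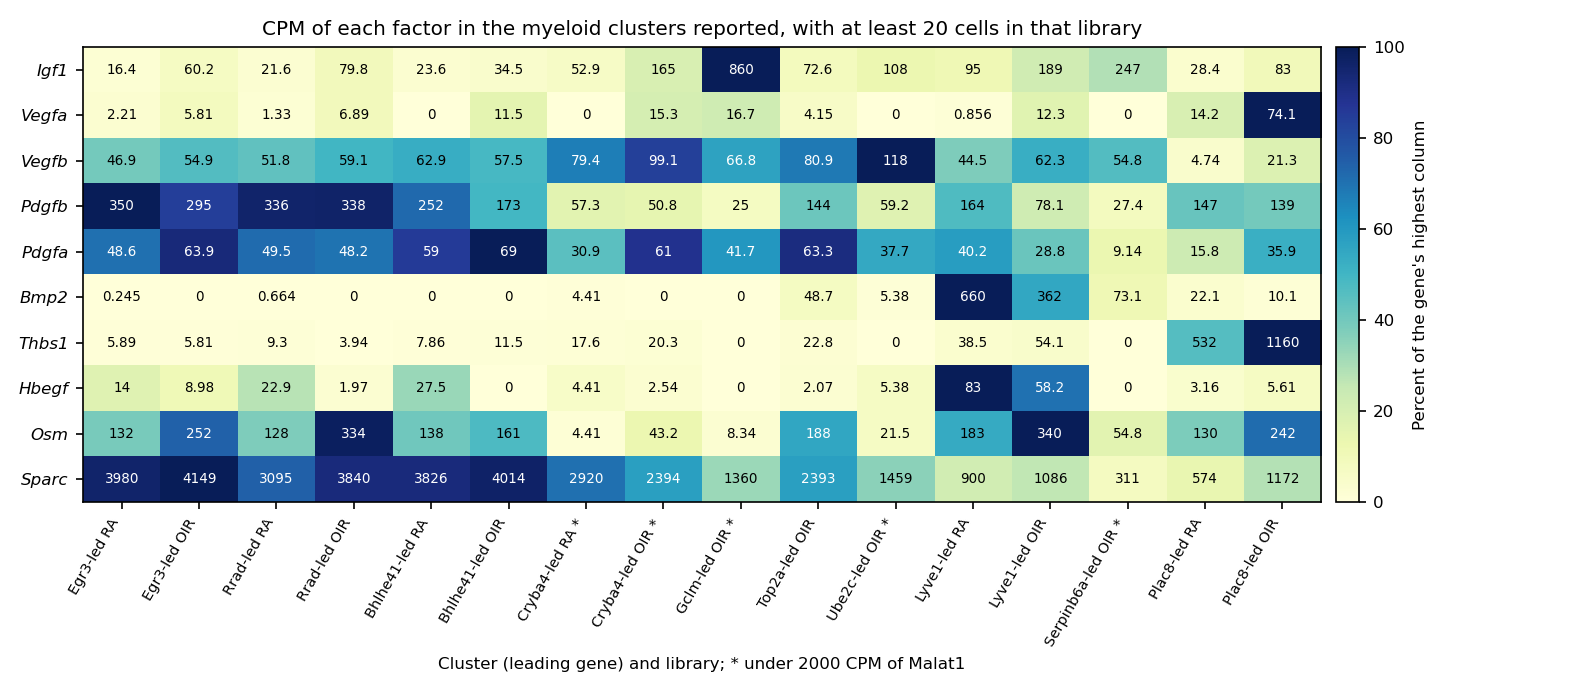
CPM of each factor (rows, values printed) in combinations of myeloid cluster and library with at least 20 cells (columns), shaded by the percent of the gene's highest column shown; 1 microglial cluster is not drawn. Asterisks mark clusters with under 2000 CPM of Malat1. Igf1 peaks in the Gclm-led OIR cells at 860 CPM, Bmp2 and Hbegf in Lyve1-led macrophages, Thbs1 and Vegfa in Plac8-led OIR monocytes, and Pdgfb and Osm are low in each asterisked column.

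The genes whose levels ran most like those of a factor over the 18 combinations of cluster and library with at least 20 cells differed from factor to factor. As a description over points that share libraries, Igf1 ran with Prdx1 (Pearson's r = 0.91), Fth1 and Cd68, Bmp2 with Serpinb8 (0.96), Cd38 and Lyve1, and Thbs1 with Adgre5 (0.95), Plbd1 and Ccr2. Pdgfb ran with Icam1 (0.95), Sowahc and Cdk12, Osm with Fnip1 (0.94), Arih2 and Usp7, and Pdgfa with Npnt (0.91), Cadm1 and Myo1e. Sparc ran with Ecscr (0.96), Serpine2 and Ctss, Vegfb with C1qb (0.89), C1qc and Scoc, Vegfa with Ass1 (0.85), Csf2ra and Rala, and Hbegf with Cd164 (0.84), Osbpl11 and Pcm1.

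The level of several factors in monocytes and macrophages moved with P2ry12, a receptor that marks microglia. Of 50 monocytes with a Sparc UMI, 82.0% held a P2ry12 UMI, against 3.26% of 92 monocytes without Sparc, at median depths of 15298.5 and 6327 UMIs. Sparc stood at 1466 and 2017 CPM in monocytes with a P2ry12 UMI. In monocytes with no P2ry12 UMI (41 in RA and 57 in OIR), it stood at 47.7 and 99.3 CPM. That was below the rod level in RA and above it in OIR. Igf1 was 0 and 15.3 CPM in these monocytes, Pdgfb 30.1 and 30.5 CPM against 345 and 225 CPM with a P2ry12 UMI, and Vegfb and Bmp2 had 0 UMIs. By contrast, Thbs1 stood at 650 and 1683 CPM in the monocytes with no P2ry12 UMI, Vegfa at 15.1 and 73.8 CPM and Osm at 121 and 188 CPM. These 3 factors were therefore found in monocytes with or without the microglial transcript, while nearly all Sparc, Igf1 and Vegfb of the class lay in the cells that carried it.

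**Figure D4:**
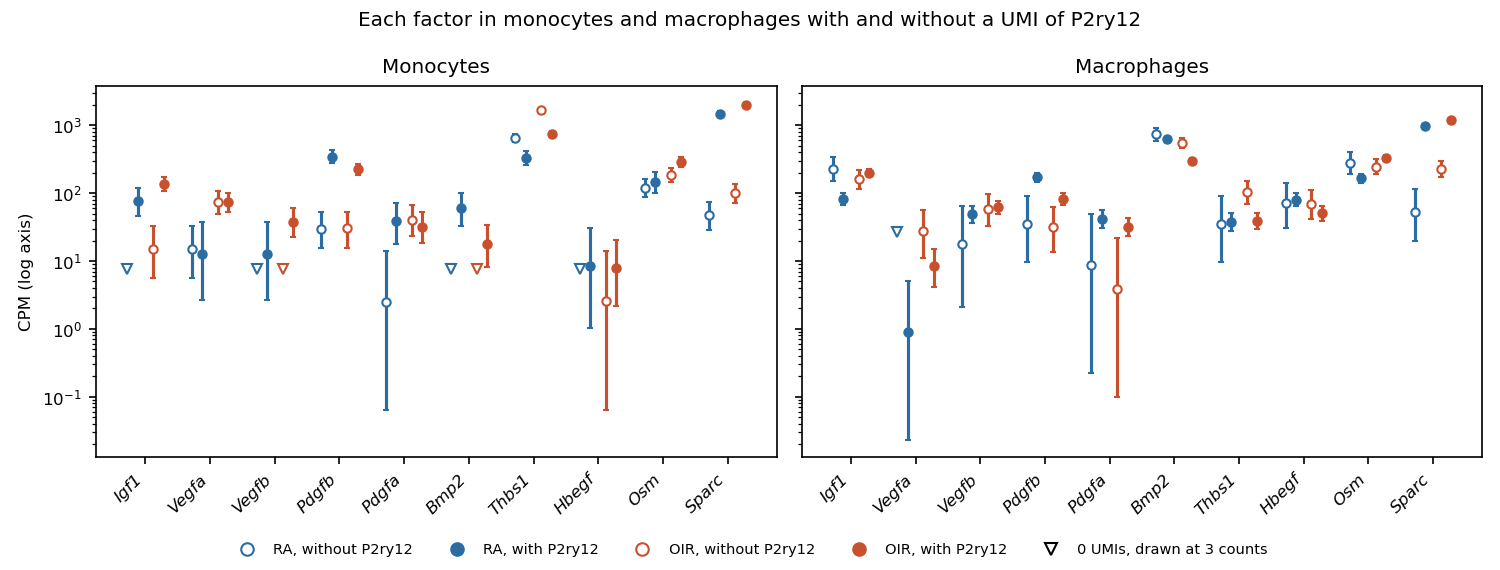
Level of each factor (CPM, log axis, 95% Poisson intervals) in monocytes (left) and macrophages (right) without (open) and with (filled) a UMI of P2ry12, in the RA (blue) and OIR (orange) libraries; triangles mark 0 UMIs, drawn at 3 counts. Sparc in monocytes is 47.7 and 99.3 CPM without and 1466 and 2017 CPM with P2ry12, while Thbs1 is higher in the cells without it.

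In macrophages the same split went with lower Sparc, Pdgfb and Pdgfa in the cells without P2ry12. Macrophages with no P2ry12 UMI (17 in RA and 52 in OIR, median depths 4338 and 3230.5 UMIs) held Bmp2 at 741 and 552 CPM and Hbegf at 70.6 and 70.4 CPM. Sparc was 52.9 and 227 CPM there and Pdgfb 35.3 and 31.3 CPM, and Pdgfa had 1 UMI in each library. The log2 ratio of Igf1 between OIR and RA macrophages, 0.99 over all of them, was -0.52 (-1.26 to 0.25) in these cells, at 229 and 160 CPM, an interval that spans equality, and that of Osm was -0.20 (-0.83 to 0.47). Over microglia, Osm in these macrophages had a log2 ratio of 0.12 (-0.28 to 0.48) in OIR and 1.07 (0.52 to 1.58) in RA. The cells without P2ry12 were also the shallower ones, and the part of depth and of mixed cells in these levels was not tested.

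Over the 9 members with enough counts in microglia, 2 were at least 2-fold higher in OIR than in RA (Igf1 and Vegfa) and 1 lower (Hbegf), against 6.7% and 7.33% of 10449 genes tested. The members' median log2 ratio was 0.21, and that of all genes -0.01. In macrophages 0 of 9 were higher and 1 was lower (Pdgfb), against 9.81% and 5.4% of all genes. In macrophages with no P2ry12 UMI, 6 members had enough counts. Thbs1 (4 and 27 UMIs) and Sparc (6 and 58 UMIs) were higher there and 0 were lower. The share of all genes past 2-fold was not computed for these cells. Pdgfb, at 4 UMIs in RA and 8 in OIR, had too few counts. In monocytes 6 of 9 were higher (Igf1, Vegfa, Vegfb, Pdgfa, Thbs1 and Sparc) and 1 lower (Bmp2), against 8.17% and 6.6% of all genes, but most Igf1, Vegfb, Bmp2 and Sparc UMIs there lay in cells with a P2ry12 UMI. In monocytes with no P2ry12 UMI, 5 members had enough counts. Vegfa, Thbs1 and Sparc (19 and 39 UMIs) were higher there and 0 were lower, again with no share of all genes computed. Bmp2 had 0 UMIs in these monocytes in both libraries. With 1 library per condition, the library and the condition cannot be told apart.

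**Figure D5:**
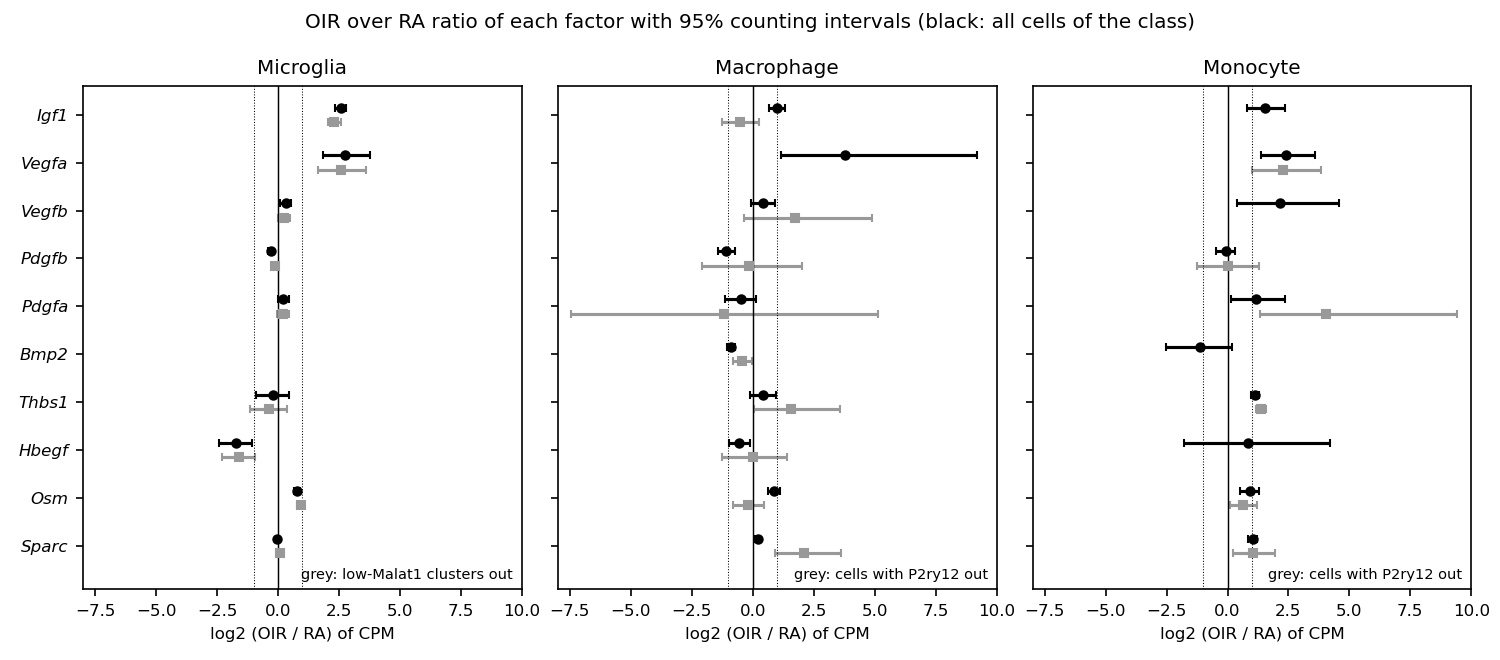
Log2 ratio of OIR over RA for each factor in microglia, macrophages and monocytes (black circles, all cells of the class), with 95% counting intervals and dotted lines at 2-fold. Grey squares leave out the clusters low in Malat1 (microglia) or the cells with a P2ry12 UMI (macrophages and monocytes); factors with 0 UMIs on either side have no point. Igf1 in microglia lies at 2.56 and 2.31, while Igf1 in macrophages lies at 0.99 for all cells and at -0.52 without the P2ry12 cells.

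Other secreted factors of a list of 14 gave a further view of the microglia. Gas6, a ligand of the TAM receptors, stood at 123 CPM in RA and 313 CPM in OIR microglia (log2 ratio 1.35, 1.23 to 1.47) and at 367 and 846 CPM in macrophages (1.21, 1.05 to 1.36). Csf1, the growth factor of the myeloid lineage, stood at 86.0 and 192 CPM in microglia (1.16, 1.01 to 1.31), and progranulin (Grn) at 1039 and 1682 CPM. Of 5 tested genes, Gas6 and Csf1 were at least 2-fold higher in OIR microglia and Mdk lower, at 22 and 4 UMIs, against 6.7% and 7.33% of all genes tested. Pros1, another TAM receptor ligand, stood at 132 and 160 CPM in microglia. Hgf was found mainly in monocytes, at 16 UMIs in RA and 11 in OIR.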

How the data were processed

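The authors deposited raw, unnormalized UMI counts for each gene in each cell. Cell Ranger 3.1.0 is named in the file headers, and the submitters' processing notes name mm10 and Seurat 4.0. Barcodes numbered 1449 (RA, 12810892 UMIs, median 8607 per cell) and 1259 (OIR, 9835402, median 5254), the cell numbers the study gives. After the study's filters (mitochondrial share up to 20%, the 2% of cells with most genes removed), 1295 and 1179 cells were kept. Cells were integrated by CCA in Seurat 5.3.0 on 3000 anchor genes without the members (30 dimensions, resolution 0.8), clusters with Ptprc in at least 10% of cells were reclustered, and each cluster was named by the class with most markers among its 10 leading genes, otherwise by the highest median marker ratio, a rule set after seeing the data. Scrublet (scanpy 1.11.5) marked 4 and 2 cells as doublets, under 0.5% of the cells, and they were kept.

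UMIs were summed by class, cluster and library and divided by the summed total (CPM), with exact Poisson, Clopper-Pearson and conditional ratio intervals at 95%. PCR copies are collapsed by UMI, and intervals cover counting error only. A gene was called 2-fold different with at least 20 UMIs over both groups, and 3 counts stood in for 0. No p-value was computed, since each condition is 1 library. Shares were also taken after thinning cells to 2000 UMIs each; 39 RA and 129 OIR myeloid cells had fewer and were not used there. The interval scripts were tested on simulated data. The members and lists were chosen with earlier results of these data known. All 10 members are named, with the genes of the fixed lists that reach 100 CPM in a class or are receptors of a member, and the 3 genes most correlated with each member among 5563 over the 18 combinations of cluster and library with at least 20 cells. Other genes of the lists, the P2ry12 and Lyve1 splits and the motifs were chosen after their values were seen. Promoter sequences are RefSeq's for GRCm38.p6, where 5 of 10 members had an entry. One microglial cluster is not reported here on its own, though its cells count in the values for microglia.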

Additional observations from a re-analysis of the deposited data

Results flagged for a closer look

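Sparc and Thbs1 had intervals on opposite sides of equality in different classes. For Thbs1 the log2 ratio of OIR over RA was 1.12 in monocytes and -4.45 in dividing cells, where all 67 RA UMIs came from 1 cell. For Sparc it was 1.03 in monocytes and 0.20 in macrophages, and -0.17 (-0.32 to -0.01) in dividing cells, of which RA had only 15. These differences between classes were not tested.

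The 32 Igfbp7-led cells, which carried vascular marker genes and entered no comparison, exceeded each myeloid class of their library in 3 cases: Vegfa at 168 CPM in RA (30 UMIs in 16 cells), Pdgfa at 304 CPM in OIR (48 UMIs in 16 cells) and Sparc at 5118 CPM in OIR.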

How the results depend on the processing

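No p-value was available, so a result was compared with its own counting interval. Of 648 log2 ratios recomputed under 14 alternatives, 550 stayed inside the main interval, 98 moved outside it and 0 called ratios changed sign. They covered OIR over RA in microglia, and macrophages or monocytes over microglia within each library. Ratios of OIR over RA in macrophages and in monocytes were not among them. Of 126 ratios of OIR over RA microglia, 108 stayed inside. The log2 ratio of Igf1 in microglia ranged from 2.31 to 2.73. That of Thbs1 in microglia, -0.21 in the main setting and not called, ranged from -1.06 to 1.44, past 2-fold in either direction. Of 260 recomputed levels of a factor in its highest class, 201 stayed inside their counting interval and 59 moved outside it. The number of members highest in the same class was 8 to 10 in each library, and the members that changed class mostly went to dividing cells.

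Counts of members moved by over 1.5 times in these cases, and the cause was not tested. Members at least 2-fold lower in OIR than in RA microglia were 2 rather than 1 with doublets left out. Members lower in RA macrophages than microglia were 1 rather than 2 with a Ptprc limit of 25%, with no filter on genes per cell and with ratios centred on the median, and 4 with P2ry12-containing macrophages and monocytes left out, an alternative chosen after seeing the data, as were those that leave out the clusters low in Malat1 or the Cryba4-led cluster. Members lower in OIR monocytes than microglia were 4 rather than 2 with a Ptprc limit of 25%, with cells of at least 2000 UMIs and with centred ratios, and 5 with means over cells and without P2ry12-containing cells. Members higher in RA monocytes were 1 rather than 2 without P2ry12-containing cells, where Vegfa had too few counts. Members found in at least 10% of RA microglia were 3 rather than 6 after thinning. Without P2ry12-containing cells, members higher in OIR than in RA macrophages were 2 rather than 0 and lower 0 rather than 1, and in monocytes 3 rather than 6 were higher and 0 rather than 1 lower. Fewer members had enough counts in those cells, 6 rather than 9 in macrophages and 5 rather than 9 in monocytes. The share of all genes past 2-fold was not computed there, so these counts have no background to be read against.

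No paired analysis was possible because each condition is 1 library. Leaving out microglial clusters led by rod genes was not run, because none was led by them. Depth limits Vegfa, Hbegf and all comparisons of RA dividing cells.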
